A study of Mus musculus with 24 samples.

Results

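Interferon-stimulated genes are the genes that cells switch on when interferon binds its receptors. The 41 members described here were taken from the symbol column of the deposited tables by a list of names that covers the transcription factors, RNA sensors, antiviral effectors and presentation genes of this response. Every one of the 41 was found, among 37041 genes. The list was not drawn from the values of these libraries, although earlier results of the same libraries were known when it was chosen.

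The libraries were prepared from poly(A) RNA of C2C12 cells, a mouse myoblast line, and of brown adipose tissue (BAT) of mouse neonates. The 18 C2C12 libraries form 6 groups of 3: control cells and cells expressing the transcription factor NFIA, each before the 7-day course (day 0), at its end (day 7), and at its end with 10 μM forskolin for 4 hours. Forskolin activates adenylyl cyclase and so raises cyclic AMP. The 6 tissue libraries are 3 labelled wild type and 3 labelled NFIA-KO. The control cells are labelled only as such. The sources used here do not state how NFIA was brought into the cells, whether a line is a clone or a pool, which medium was used from day 0 to day 7, or the strain, sex and litter of the neonates. The labels do not say whether replicates were separate cultures or animals, so a p-value measures the spread between these libraries, which may be technical.

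Type I interferons bind a receptor on the cell surface whose kinases, JAK1 and TYK2, phosphorylate STAT2. STAT2 acts in a complex with IRF9 that binds the interferon-stimulated response element (ISRE) in the promoters of its target genes. Interferon gamma acts through its own receptor, and its target promoters hold the gamma-activated sequence (GAS). The products degrade viral RNA, block translation, tag proteins with ISG15, restrict membrane fusion and load peptides onto MHC class I. Many of them are also expressed at a low level without any infection.

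Promoter stretches of 8 members that differed between the groups are shown first. They were chosen among members whose windows hold a match, so the element that most of them share follows from the choice. A RefSeq promoter window (GRCm38.p6, 250 bases before to 50 after the start) was matched for 32 of the 41 members; none was matched for Dhx58, Mx1, Mx2, Oas2, Parp14, Parp9, Rtp4, Usp18 or Zbp1. The ISRE core, searched on both strands as TTTC, any 2 bases and TTTC, was found in 17 of the 32 windows, 53.1% of them. It was found in 3.99% of the 27025 gene symbols with a window. The letters TTCNNNGAA, searched on both strands as the GAS, were found in 10 of the 32 and in 9.55% of all symbols. The NFI palindrome, TTGGC, any 5 bases and GCCAA, was found in 1 member, Oasl1, and in 12 symbols in all, 0.044%. A match is a run of letters and not a shown binding site. The stretches below are 5′ to 3′ on the strand of the gene. Capitals mark the ISRE match in Ifit1, Ifit3, Isg15, Gbp3 and Irgm1, the ISRE and GAS matches in Igtp and Irgm2, and the NFI match in Oasl1.
Ifit1 (chr19:34640770-34640828, plus strand): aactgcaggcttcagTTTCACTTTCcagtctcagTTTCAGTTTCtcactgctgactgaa
Ifit3 (chr19:34583358-34583431, plus strand): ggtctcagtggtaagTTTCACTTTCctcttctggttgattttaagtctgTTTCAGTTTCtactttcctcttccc
Isg15 (chr4:156200860-156200911, minus strand): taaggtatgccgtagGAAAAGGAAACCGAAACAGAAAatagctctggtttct
Gbp3 (chr3:142559984-142560029, plus strand): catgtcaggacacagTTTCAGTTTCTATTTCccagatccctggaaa
Irgm1 (chr11:48871421-48871465, minus strand): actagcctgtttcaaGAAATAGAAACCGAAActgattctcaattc
Igtp (chr11:58199496-58199546, plus strand): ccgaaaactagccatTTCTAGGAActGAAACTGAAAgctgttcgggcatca
Irgm2 (chr11:58214887-58214937, plus strand): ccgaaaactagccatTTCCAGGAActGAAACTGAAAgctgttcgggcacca
Oasl1 (chr5:114923116-114923160, plus strand): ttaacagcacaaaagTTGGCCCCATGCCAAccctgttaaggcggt
In Ifit1 and Ifit3, which lie near each other on chromosome 19, the ISRE letters occur separately, each in the TTTC orientation. In Isg15, Gbp3 and Irgm1 they overlap each other. The Igtp and Irgm2 stretches are 51 bases long and differ at 2 of them, so the 2 genes carry the same pair of elements; reads of such close relatives may also have been shared between them. Irf7, Irf9, Oasl2, Uba7, Trim25, Cmpk2, Ifitm1, Ifi44, Xaf1 and Tap1 held none of the 3 runs of letters within their windows. Among them Irf7, Irf9, Oasl2, Ifi44 and Tap1 were called higher in NFIA cells at day 0, as given below, and Ifitm1 was called lower. Ifit2, also called higher at day 0, held the GAS letters but not those of the ISRE.

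Expression is given as FPKM, fragments counted on a gene after division by its length and by the library's mapped fragments, and differences as differences of log2(FPKM + 1) ± SE from limma, fitted over all genes and adjusted over all of them by the Benjamini-Hochberg method. A gene was tested where it reached 1 FPKM in at least 3 libraries of the fit, and was called at an adjusted p under 0.05. Because 1 is added, a log2 difference understates the change of genes near 0. FPKM sums ranged from 762822 to 1575522 per library and 17304 to 21410 genes were above 0; read depth is not known from these tables. Nfia itself was at 0.26 to 2.23 FPKM in control C2C12 libraries and at 1252 to 10448 in NFIA libraries. In the tissue Nfia went against the label: it was 24.3, 32.8 and 32.6 in the wild-type libraries and 44.6, 40.1 and 39.4 in the libraries labelled NFIA-KO (0.47 ± 0.15, adjusted p = 0.097). A gene-level value can include reads outside a deleted part. In C2C12 cells the leukocyte marker Ptprc was at most 0.01 FPKM and the 9 lymphocyte markers summed to at most 0.2. The 11 macrophage and myeloid markers summed to 6.16 to 9.21 FPKM in the control libraries of day 7, to 13.05 to 16.6 in the NFIA libraries and to 21.9 to 29.5 in those with forskolin. In these 6 NFIA libraries C1qa, C1qb, C1qc, Emr1 and Ptprc were at 0, whereas Cd68, a lysosomal membrane protein, was at 11.1 to 24.3 against 1.22 to 2.22 in the controls. The 7 neutrophil markers summed to 153 to 566 FPKM in the same libraries against 0.18 to 0.67 in the controls: S100a8 made up 148 to 552 of it, Camp reached 13.9, S100a9 was at most 1.08 and Ltf was listed at 0. The part of these genes' cells in the member values was not tested.

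The column headers carry 2 dates. The later date belongs to the 12 C2C12 libraries whose titles are numbered, and the earlier one to the 6 without a number and to the tissue libraries. The earlier date holds 1 C2C12 library per group and gives no value of its own; values within the later date are printed beside the counts below.

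C2C12 cells and brown fat differed in which members they expressed. Ifitm3, which blocks the fusion of viral and endosomal membranes, was the highest member in every group and made up 57.9% to 74.7% of the summed member FPKM in the C2C12 libraries, against 22.5% to 27.3% in the tissue. In control cells at day 0, 19 of the 41 members had a mean of at least 1 FPKM, and in wild-type brown fat 38 did. The 11 members that were not tested in C2C12 cells, since they never reached the minimum in 3 libraries, were Zbp1, Oas1a, Oas2, Oas3, Uba7, Usp18, Mx1, Mx2, Rsad2, Cmpk2 and Parp14; the highest single value among them was 0.91 FPKM. Rsad2 (viperin) and its neighbour Cmpk2 reached at most 0.51 and 0.06 FPKM in the cells but 2.51 to 14.4 and 1.56 to 7.37 in the tissue. Tissue and cells were not compared by a test, because they differ in source and were fitted separately.

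**Figure D1:**
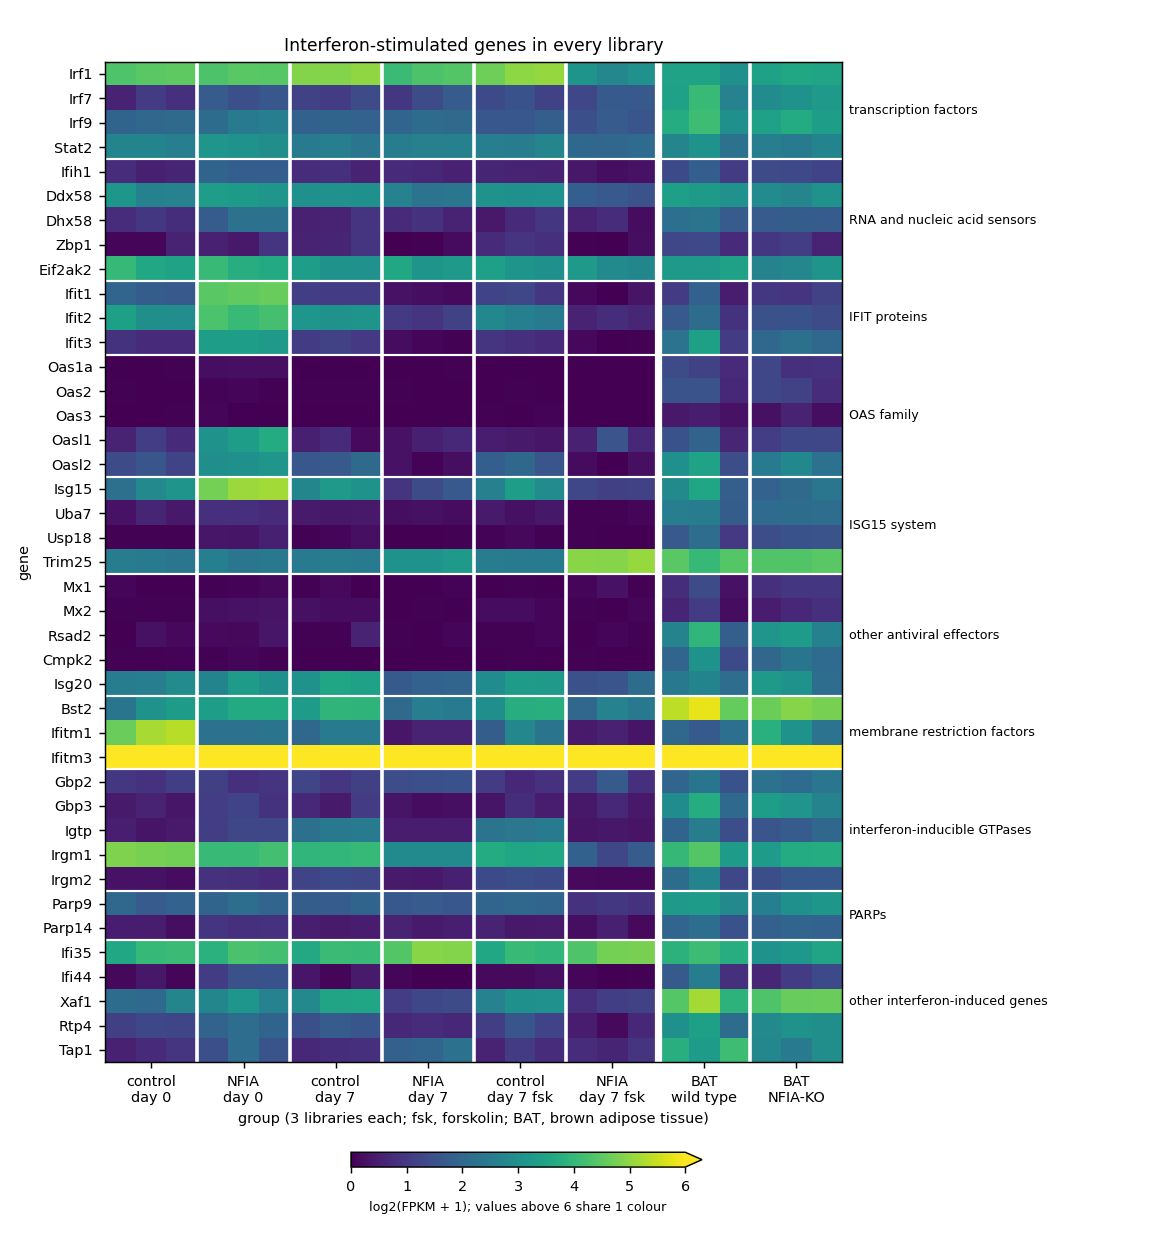
Level of each of the 41 members (rows, grouped by role) in each of the 24 libraries (columns, 3 per group), as log2(FPKM + 1) by colour; values above 6 share the last colour. Ifitm3 is bright in every library, the IFIT genes and Isg15 are brightest in the NFIA libraries of day 0, and the Oas and Mx genes are dark in all C2C12 libraries.

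At day 0, before the 7-day course, most measured members stood higher in NFIA cells than in control cells. Of the 30 members that passed the filter, 18 were called higher and 2 lower, and 10 were not called. Over all 14351 genes tested, 12.1% were called higher and 9.07% lower (21.2% in either direction). The median difference of the 30 was 0.58, against 0.02 for all genes tested. Ifih1, Dhx58 and Ifi44 passed the filter only through the NFIA libraries of day 0, so a difference was built into their selection. Oasl1 and Gbp3 would not have passed without these libraries, nor Tap1 without the NFIA libraries of day 0 and day 7. The differences of Oasl1, Gbp3 and Tap1 were thus favoured by the selection. Without that selection, over all 41 members, the NFIA libraries lay wholly above the control libraries for 23 and wholly below for 2; among all genes above 0 the shares were 13.1% and 10.7%. In the numbered libraries alone, 16 were called higher and 2 lower of 26 tested. In these bulk samples, more cells expressing a gene and more RNA per cell cannot be told apart.

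The IFIT genes, whose products bind foreign RNA and block its translation, were all called higher. Ifit1 (ENSMUSG00000034459.8, mm9 chr19:34715361-34724499) was at 2.87, 2.41 and 2.21 FPKM in control cells and at 20.9, 22.1 and 23.4 in NFIA cells, a difference of 2.73 ± 0.10 (adjusted p = 4.4e-11). Ifit3 (mm9 chr19:34658021-34663221) was at 0.85, 0.65 and 0.65 in control cells and at 9.22, 9.24 and 8.45 in NFIA cells (2.54 ± 0.08, adjusted p = 1e-11). The 2 groups were far apart for both genes, by 8.87-fold and 12.5-fold in their means. Ifit2, already at 6.68 to 9.68 in control cells, was at 15.8 to 18.7 in NFIA cells (1.08 ± 0.12, adjusted p = 9.5e-06), a smaller difference from a higher start. Isg15, the ubiquitin-like protein that is attached to other proteins during the response, was at 3.65, 6.14 and 7.63 FPKM in control cells and at 25.9, 33.3 and 34.9 in NFIA cells (2.28 ± 0.24, adjusted p = 4.9e-06). Its protease Usp18, not tested, was at 0.02 to 0.03 against 0.26 to 0.43, and its activating enzyme Uba7, not tested either, at 0.22 to 0.53 against 0.65 to 0.79. Trim25, the ligase that ubiquitinates the sensor RIG-I, was not called, at 4.86, 4.51 and 4.14 against 4.98, 4.15 and 4.39.

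Among the OAS genes, Oasl1, which represses translation of Irf7 mRNA, was at 0.50, 1.13 and 0.65 FPKM in control cells and at 7.41, 9.10 and 11.9 in NFIA cells (2.57 ± 0.25, adjusted p = 1.4e-06). Oasl2 was at 1.33 to 2.05 against 6.92 to 7.76 (1.64 ± 0.14, adjusted p = 4.5e-07). Both were clear of the control range, which for Oasl1 was favoured by the filter. The enzymes that make the 2′-5′ oligoadenylate messenger remained near 0 in both groups: Oas1a was at 0 to 0.03 in control cells and 0.17 to 0.19 in NFIA cells, and Oas2 and Oas3 were at 0.07 or less throughout. The listed locus of Oasl1 overlaps that of Gm13822, so its value may hold reads of both.

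Of the 4 cytosolic RNA sensors tested, Ifih1 and Dhx58 passed the filter only through the NFIA libraries of day 0, so their calls were built into the selection and are given as a description. Ifih1 (MDA5) was at 0.43 to 0.69 FPKM in control cells and at 2.46 to 2.84 in NFIA cells (1.21 ± 0.09). Dhx58 (LGP2), which modulates the other sensors, was at 0.70 to 0.97 against 2.35 to 3.81 (1.24 ± 0.18); its listed locus overlaps those of Cnp, Dnajc7, Gm11547, Nkiras2 and Zfp385c, so its value may hold their reads. Ddx58 (RIG-I) overlapped between the groups, at 7.97, 5.20 and 5.31 against 9.13, 8.62 and 7.69; its call (0.42 ± 0.13, adjusted p = 0.032) was lost in 8 of 16 alternative analyses, among them those without control replicate 2 or 3 or NFIA replicate 1 or 2 (0.33 to 0.41). Eif2ak2 (PKR), the kinase that halts translation on double-stranded RNA, was not called (0.13 ± 0.18, adjusted p = 0.69); its listed locus overlaps Sult6b1 and Gm16825.

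Of the transcription factors, Irf7, the factor that amplifies interferon production, was at 0.51 to 1.11 FPKM in control cells and at 1.74 to 2.29 in NFIA cells (0.76 ± 0.18, adjusted p = 0.0075); its listed locus overlaps that of Phrf1. Stat2 was at 4.95 to 5.52 against 6.87 to 7.81 (0.40 ± 0.08, adjusted p = 0.0011). Irf9, at 2.81 to 3.20 against 3.33 to 4.88, was called (0.38 ± 0.11, adjusted p = 0.017) but lost the call in 5 of 16 alternatives, among them those without control replicate 1 or 2 or NFIA replicate 2 or 3 (0.29 to 0.37). Irf1, the factor most directly induced by interferon gamma, was at 19.4 to 21.8 against 19.0 to 21.2 and was not called (-0.03 ± 0.11, adjusted p = 0.91).

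The interferon-inducible GTPases split. Igtp was at 0.26 to 0.41 FPKM in control cells and at 1.15 to 1.43 in NFIA cells (0.80 ± 0.08, adjusted p = 2.6e-06), Irgm2 (0.54 ± 0.06) and Gbp3 (0.60 ± 0.15) also rose, and Gbp2 was not called (-0.02 ± 0.18). Irgm1, which guards autophagy and holds the other immunity-related GTPases inactive, went the other way: 27.5, 26.3 and 25.3 in control cells and 15.9, 15.5 and 17.6 in NFIA cells (-0.66 ± 0.11, adjusted p = 0.00044). The steepest fall of any member was that of Ifitm1, an antiviral membrane protein, at 23.6, 35.9 and 39.7 in control cells and 3.72, 3.74 and 3.94 in NFIA cells (-2.79 ± 0.22, adjusted p = 2e-07). Its paralog Ifitm3 was not called (0.06 ± 0.23) and neither was Bst2 (tetherin), although every NFIA library was above every control library for Bst2, at 9.20 to 11.8 against 4.03 to 8.92 (0.66 ± 0.28, adjusted p = 0.12). Tap1, the peptide transporter of MHC class I presentation, was at 0.46 to 0.87 against 1.76 to 3.45 (1.0 ± 0.17, adjusted p = 0.00056); its listed locus overlaps that of Psmb9. Ifi44 (1.15 ± 0.12) and Rtp4 (0.77 ± 0.14) rose as well.

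**Figure D2:**
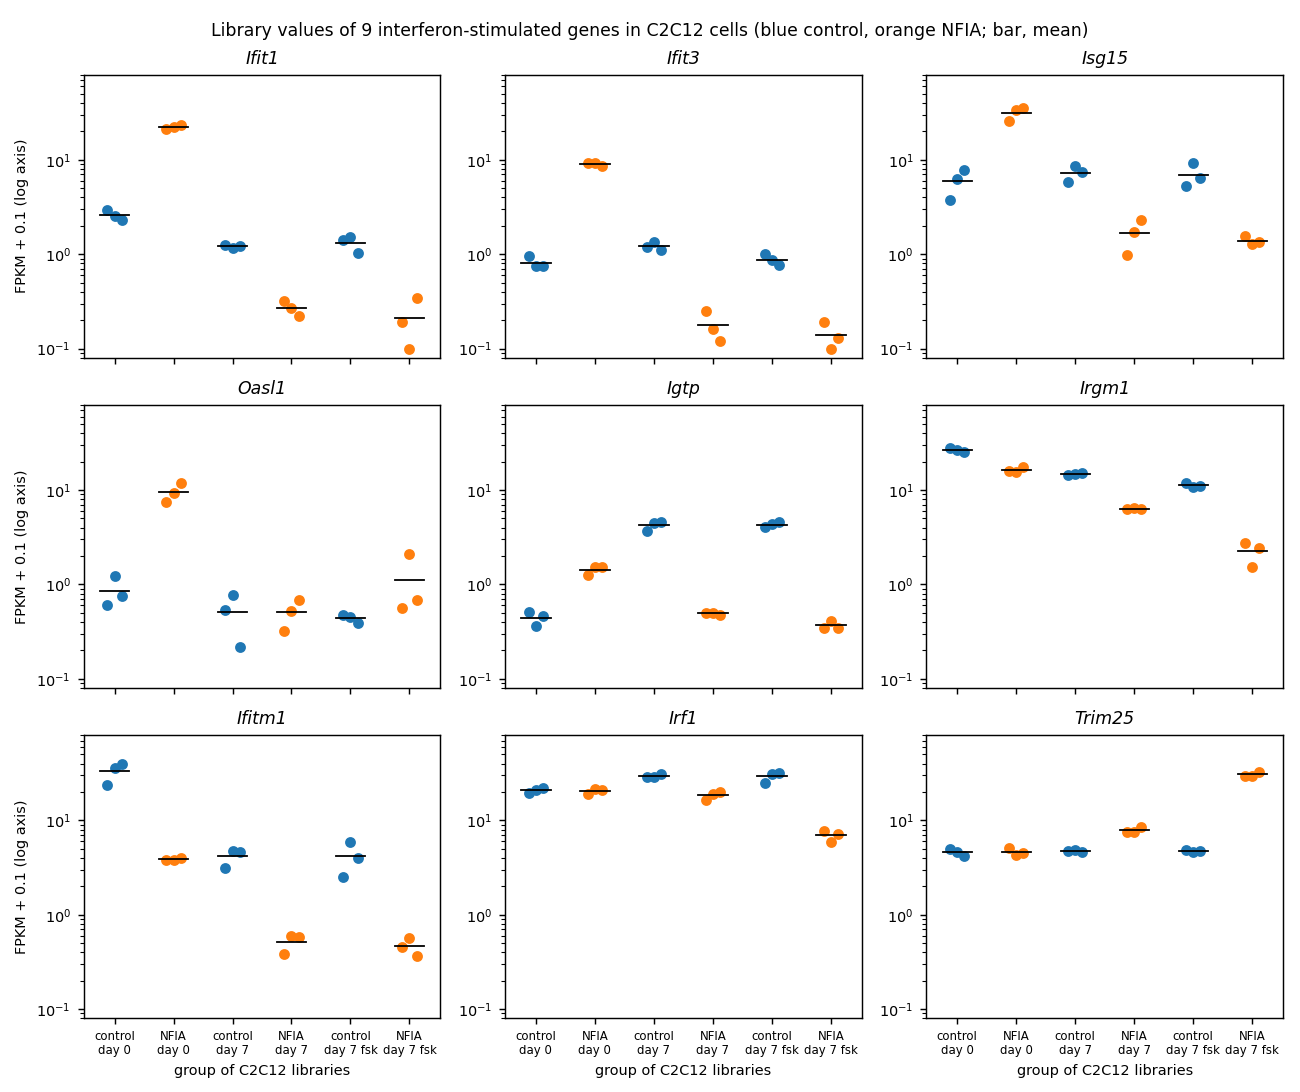
FPKM + 0.1 on a log axis for 9 members in the 6 groups of C2C12 libraries; points are libraries, black bars are means, blue is control and orange is NFIA. Ifit1, Ifit3, Isg15 and Oasl1 peak in the NFIA libraries of day 0, Ifitm1 is highest in control cells of day 0, and Trim25 stands apart only in the NFIA libraries of day 7, most of all with forskolin.

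Over the 7 days, most members tested fell in NFIA cells, while in control cells some rose and a few fell. In control cells, 9 of the 30 members were called higher at day 7 and 4 lower, where 24.9% and 23.9% of all genes tested were called (48.9% in either direction). The number of members called in either direction in control cells, 13 of 30, was thus near the background. Under quantile normalization the split was 6 higher and 8 lower, and the median of all genes tested moved from 0.02 to -0.09. In the numbered libraries 8 were higher and 4 lower of 26. In NFIA cells, 3 were called higher and 23 lower, where 27.5% and 29.4% of all genes were (56.9%). The median of the members was 0.08 in control cells and -0.99 in NFIA cells, against 0.02 and -0.01 over all genes tested. The numbered libraries gave 2 higher and 20 lower in NFIA cells. Over all 41 members, the libraries of day 7 lay wholly above those of day 0 for 11 and wholly below for 6 in control cells (20.9% and 16.9% of genes above 0), and for 3 and 32 in NFIA cells (23.2% and 23.1%).

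The members that rose in control cells were led by GTPases. Igtp went from 0.41, 0.26 and 0.36 FPKM at day 0 to 3.62, 4.39 and 4.48 at day 7 (1.94 ± 0.08, adjusted p = 4.5e-11), and Irgm2 from 0.15 to 0.23 up to 1.35 to 1.54 (1.03 ± 0.06, adjusted p = 5.7e-09). Irgm2 passed the filter only through control libraries of day 7, with and without forskolin, so its rise was built into its selection. Xaf1, a pro-apoptotic interferon target, rose by 0.99 ± 0.21 and Irf1 by 0.48 ± 0.11. The calls of Rtp4 (0.38 ± 0.14), Oasl2 (0.39 ± 0.14) and Bst2 (0.81 ± 0.28) were each lost in 4 or more of 16 alternatives. Without replicate 1 of day 0 or replicate 3 of day 7, none of the 3 was called (0.33 and 0.38, 0.38 and 0.25, and 0.53 and 0.72); Rtp4 and Oasl2 were also not called without replicate 3 of day 0 (0.39 and 0.29), nor Rtp4 and Bst2 without replicate 2 of day 7 (0.31 and 0.71). The call of Ifit3 (0.30 ± 0.08) was lost with a pseudocount of 0.1, and its value turned to -0.01 under quantile normalization. The members that fell were Ifitm1, from 23.6 to 39.7 down to 3.03 to 4.61 (-2.74 ± 0.22, adjusted p = 9.7e-08), Irgm1 (-0.79 ± 0.11), Ifit1 (-0.72 ± 0.10) and Eif2ak2 (-0.55 ± 0.18), of which the last lost its call without replicate 1 of day 0 (-0.37) or replicate 2 or 3 of day 7 (-0.50 each).

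In NFIA cells the same 7 days took Ifit1 from 20.9, 22.1 and 23.4 FPKM to 0.22, 0.17 and 0.12 (-4.31 ± 0.10, adjusted p = 2.8e-14). Ifit3 went from 9.22, 9.24 and 8.45 to 0.15, 0.06 and 0.02 (-3.21 ± 0.08, adjusted p = 6e-14). Isg15 went from 25.9, 33.3 and 34.9 to 0.87, 1.62 and 2.21 (-3.68 ± 0.24, adjusted p = 5.2e-09). All 3 genes ended below every control library of day 7. Ifit2 (-3.15 ± 0.12), Oasl1 (-2.88 ± 0.25) and Oasl2 (-2.85 ± 0.14) fell by similar amounts, and Ifih1, Dhx58 and Ifi44, the members that had passed the filter through day 0 alone, fell by 1.19, 1.34 and 1.33. The filter favoured the fall of Oasl1, as it did its difference at day 0. The 3 members called higher were Trim25 (0.68 ± 0.08), Ifi35 (0.62 ± 0.20) and Gbp2 (0.50 ± 0.18), the last lost in 6 of 16 alternatives and Ifi35 in 3. Leaving out replicate 2 or 3 of either day ended the call of Gbp2 (0.43 to 0.49), and leaving out replicate 1 of day 0 or replicate 2 or 3 of day 7 ended that of Ifi35 (0.49 to 0.55). Irf1, Irf7, Ifitm3 and Tap1 were not called.

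The difference between the 2 courses was tested as the interaction of NFIA and day, that is, the NFIA-minus-control difference at day 7 minus that at day 0. It was called negative for 20 and positive for 2 of the 30 members, where 25.5% and 19.8% of all genes tested were called, 45.3% in all (numbered libraries, 17 and 3 of 26). The median was -1.12, against -0.06 for all genes tested. The 20 include Ifih1, Dhx58 and Ifi44. These passed the filter only through the NFIA libraries of day 0, so a negative value was built into their selection. Irgm2 passed only through control libraries of day 7, and Oasl1 and Gbp3 would not have passed without the NFIA libraries of day 0. Negative values of Irgm2, Oasl1 and Gbp3 were thus favoured by the selection. The most negative values were those of Isg15 (-3.98 ± 0.35, adjusted p = 2e-07), Ifit1 (-3.58 ± 0.14, adjusted p = 2.9e-11), Ifit3 (-3.51 ± 0.11, adjusted p = 3.1e-12), Oasl2 (-3.24 ± 0.20, adjusted p = 3.8e-09) and Ifit2 (-3.15 ± 0.17, adjusted p = 1.2e-09). The 2 positive members were Trim25 (0.64 ± 0.11, adjusted p = 0.00015) and Ifitm1 (0.97 ± 0.31, adjusted p = 0.02), the latter not called without control replicate 3 of day 0 (0.83) or replicate 1 of day 7 (0.82). The interaction shares its day 0 and day 7 libraries with the comparisons on either side of it.

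At day 7 most members tested stood lower in NFIA cells than in control cells. Of the 30 members, 17 were called lower and 3 higher in NFIA cells (median -0.58, against -0.03 for all genes tested), where 29.4% of all genes were called lower and 26.1% higher. Under quantile normalization the counts were 17 and 6, and in the numbered libraries 16 and 3 of 26. Over all 41 members the NFIA libraries lay wholly below the control libraries for 21 and wholly above for 5 (24.9% and 21.4% of genes above 0). Of all genes tested 55.5% were called at this day, so the number of members called in either direction, 20 of 30, was not far above the background.

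On the log2(FPKM + 1) scale Ifit2 showed the largest fall, at 7.95, 7.44 and 7.57 FPKM in control cells and 1.03, 0.91 and 1.27 in NFIA cells (-2.07 ± 0.12, adjusted p = 1.3e-09). By the ratio of group means Ifit2 was 7.15-fold lower, Igtp 10.6-fold, Ifit3 14.6-fold and Oasl2 17.0-fold. Ifit1 was at 1.06 to 1.16 against 0.12 to 0.22 (-0.85 ± 0.10) and Ifit3 at 1.01 to 1.26 against 0.02 to 0.15 (-0.98 ± 0.08). All IFIT genes were therefore clear of the control range on the low side. Igtp was at 3.62, 4.39 and 4.48 in control cells and 0.40, 0.40 and 0.38 in NFIA cells (-1.89 ± 0.08, adjusted p = 2.6e-11). Irgm1 was at 14.5 to 15.2 against 6.20 to 6.35 (-1.12 ± 0.11) and Irgm2 at 1.35 to 1.54 against 0.33 to 0.43 (-0.84 ± 0.06), so that Irgm1 was lower in NFIA cells at both days while Igtp and Irgm2 changed side. Irgm2 passed the filter only through control libraries of day 7, with and without forskolin. Its lower value in NFIA cells of that day was therefore built into its selection. Isg15 was at 5.71 to 8.44 against 0.87 to 2.21 (-1.69 ± 0.24) and Oasl2 at 2.10 to 3.19 against 0.04 to 0.23 (-1.60 ± 0.14). Oasl1, in contrast, was at 0.12 to 0.68 against 0.22 to 0.59 and was not called (0.01 ± 0.25, adjusted p = 0.98).

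Bst2 (9.0 to 14.2 against 3.21 to 4.92; -1.34 ± 0.28), Isg20, an RNA exonuclease (7.37 to 10.5 against 2.23 to 2.88; -1.50 ± 0.19), Xaf1 (6.10 to 10.7 against 1.12 to 1.61; -2.03 ± 0.21) and Ifitm1 (3.03 to 4.61 against 0.28 to 0.49; -1.82 ± 0.22) were also lower, with no overlap. Irf1 was at 28.4 to 31.1 against 16.1 to 20.0 (-0.65 ± 0.11, adjusted p = 0.00011). Ifitm3 was barely called (-0.56 ± 0.23, adjusted p = 0.048) and lost the call in 5 of 16 alternatives, among them those without NFIA replicate 1 or 3 or control replicate 2 or 3 (-0.63 to -0.39). Tap1 had the largest difference of the members called higher, at 0.60, 0.71 and 0.78 against 2.60, 2.88 and 3.80 (1.26 ± 0.17, adjusted p = 1.7e-05). Tap1 would not have passed the filter without NFIA libraries, so a higher value there was favoured by the selection. Ifi35 was at 11.4 to 16.1 against 20.0 to 29.3 (0.81 ± 0.20, adjusted p = 0.0031) and Trim25 at 4.57 to 4.73 against 7.45 to 8.48 (0.64 ± 0.08, adjusted p = 3.1e-06). Stat2, Irf9 and Irf7 did not pass the test (0.11 ± 0.08, 0.15 ± 0.11 and 0.16 ± 0.18).

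The cells of day 7 also differed in type. The summed skeletal muscle markers were at 25896 to 26789 FPKM in control cells and 2840 to 3907 in NFIA cells, and the summed brown adipocyte markers at 57.3 to 116 against 22224 to 24342, nearly all of it Fabp4. The part of this difference in the member values was not tested.

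**Figure D3:**
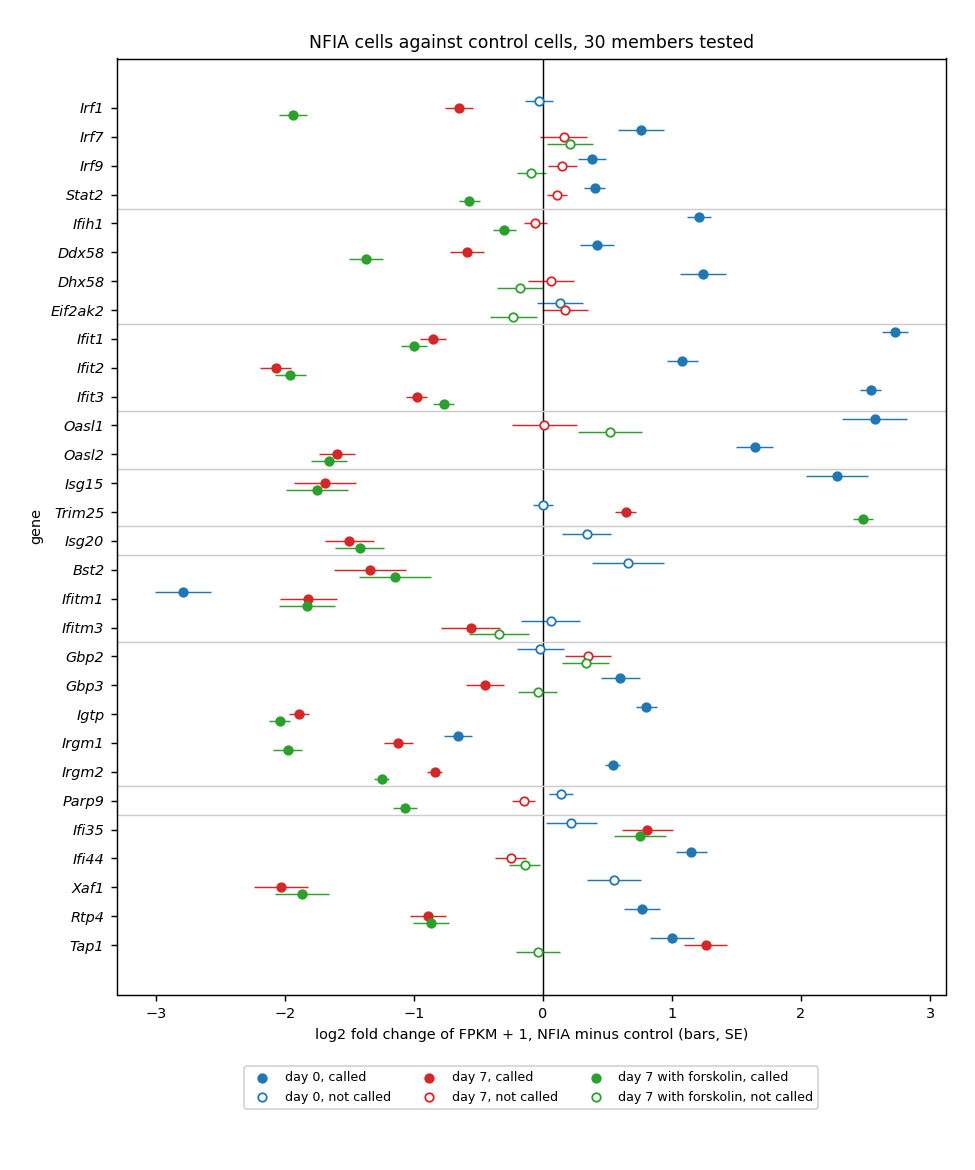
Difference of log2(FPKM + 1) between NFIA and control cells for the 30 members tested (rows, by role) at day 0 (blue), day 7 (red) and day 7 with forskolin (green); bars are SE, filled points were called and open points were not. Most members lie right of 0 at day 0 and left of 0 at day 7, while Ifitm1 and Irgm1 lie left of 0 in all 3 comparisons and Trim25 lies farthest right with forskolin.

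After 4 hours of forskolin a single member was called in control cells. Of the 30, only Ifit2 was called, lower, at 7.95, 7.44 and 7.57 FPKM without and 6.0, 5.05 and 4.6 with forskolin (-0.48 ± 0.12, adjusted p = 0.041), and this call was lost in 10 of 16 alternatives. It was lost, leaving a count of 0, without any 1 of the 3 control libraries of day 7, or without replicate 2 or 3 of the forskolin-treated control libraries (-0.50 to -0.41). Over all genes tested, 1.92% were called higher and 2.06% lower (3.97% in either direction); the numbered libraries also gave 1 member lower. Over all 41 members the treated libraries lay wholly above for 2 and wholly below for 4 (6.19% and 7.08% of genes above 0). The median of the members was -0.06 and that of all genes -0.01.

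In NFIA cells 11 of the 30 members were called with forskolin, 1 higher and 10 lower (numbered libraries, 1 and 10 of 26). Over all genes tested, 15.7% were called higher and 16.9% lower, 32.6% in either direction. The number of members called in either direction was thus near the background, while most of these calls were downward. The median of the members was -0.18, against -0.02. Over all 41, the treated libraries lay wholly above for 2 and wholly below for 13 (13.4% and 15.3%). The member that rose was Trim25 (mm9 chr11:88860690-88881607), at 7.49, 7.45 and 8.48 FPKM without and 29.7, 29.1 and 32.7 with forskolin (1.84 ± 0.08, adjusted p = 1.5e-10), a 3.91-fold rise of the mean. In control cells its values were 4.63, 4.73 and 4.57 without and 4.78, 4.50 and 4.66 with forskolin. The forskolin-treated NFIA libraries were thus apart from every other C2C12 library.

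On the log2(FPKM + 1) scale Irf1 led the members that fell, from 16.1, 19.1 and 20.0 FPKM to 7.56, 5.87 and 7.14 (-1.31 ± 0.11, adjusted p = 3.4e-07). Irgm1 fell from 6.20 to 6.35 down to 1.43 to 2.64 (-1.23 ± 0.11, adjusted p = 8.4e-07). Tap1 fell from 2.60, 2.88 and 3.80 to 0.69, 0.54 and 0.87 (-1.26 ± 0.17, adjusted p = 5.7e-05), back within the range of control cells; by the ratio of means this was the larger fall, 4.42-fold. Ddx58 (-0.77 ± 0.13), Parp9, an ADP-ribosyltransferase-like partner of the ubiquitin ligase Dtx3l (-0.76 ± 0.09), Stat2 (-0.56 ± 0.08), Irf9 (-0.46 ± 0.11), Ifih1 (-0.36 ± 0.09) and Irgm2 (-0.31 ± 0.06) fell too. Ifih1 and Irgm2 were under 1 FPKM in both groups. Ifih1 was at 0.47 to 0.68 without and 0.16 to 0.30 with forskolin, and Irgm2 at 0.33 to 0.43 and 0.09 to 0.11. The call of Ifit2 (-0.38 ± 0.12) was lost in 6 of 15 alternatives, among them those without replicate 1 or 3 of either group (-0.39 to -0.31). The listed locus of Parp9 overlaps Dtx3l and Kpna1, that of Irf9 overlaps Rnf31, that of Irf1 overlaps Gm17334 and that of Ifi35 overlaps Gm11626. Ifit1, Ifit3, Oasl2, Igtp and Isg15, which had been low since day 7, were not called.

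The interaction of NFIA and forskolin, the response of NFIA cells minus that of control cells, was called for 8 members, 1 positive and 7 negative; 10.5% and 9.61% of all genes tested were called, 20.1% in all (numbered libraries, 1 and 8 of 26). Trim25 was the positive one (1.84 ± 0.11, adjusted p = 2.2e-08). The negative ones were Tap1 (-1.30 ± 0.25, adjusted p = 0.0016), Irf1 (-1.29 ± 0.15, adjusted p = 2.9e-05), Parp9 (-0.92 ± 0.12, adjusted p = 7.7e-05), Irgm1 (-0.86 ± 0.16, adjusted p = 0.0013), Ddx58 (-0.78 ± 0.19, adjusted p = 0.0079), Stat2 (-0.69 ± 0.11, adjusted p = 0.00033) and Irgm2 (-0.41 ± 0.09, adjusted p = 0.0047). Nfia was itself higher with forskolin in the NFIA cells, at 9232 to 10448 FPKM against 3189 to 3585 without; its part in these responses was not tested.

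**Figure D4:**
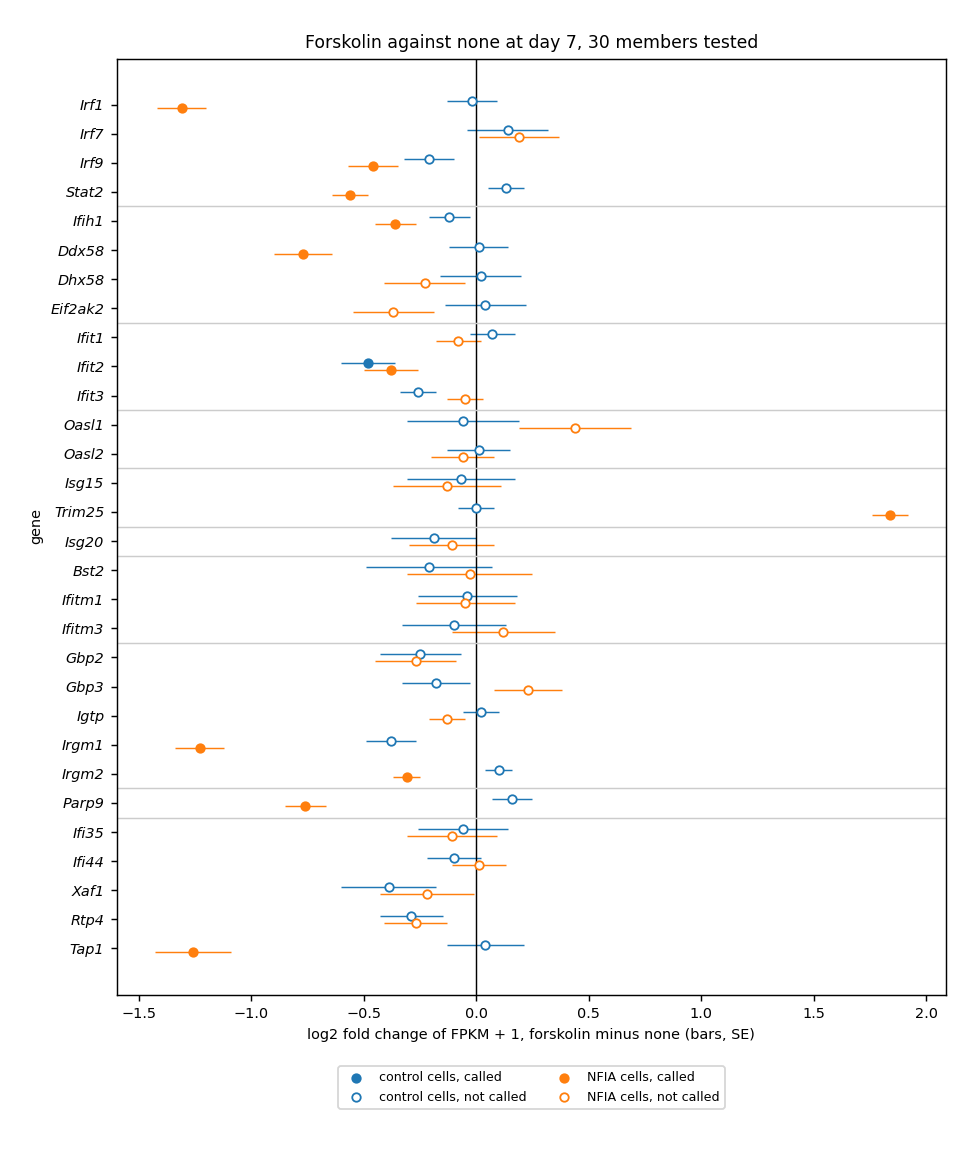
Difference of log2(FPKM + 1) between forskolin-treated and untreated cells at day 7 for the 30 members tested, in control cells (blue) and NFIA cells (orange); bars are SE, filled points were called and open points were not. Control cells cluster near 0, while in NFIA cells Trim25 lies at 1.84 and Irf1, Tap1 and Irgm1 lie between -1.31 and -1.23.

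With forskolin, NFIA cells stood below control cells in 18 members and above in 2 of the 30 (median -0.82, against -0.04 for all genes tested), where 32.9% of all genes were called lower and 28.7% higher (61.6%). The number of members called in either direction, 20 of 30, was thus not far above the background. Quantile normalization gave 18 and 5, and the numbered libraries 19 and 2 of 26. Over all 41 members the libraries lay wholly below for 22 and wholly above for 3 (26.3% and 21.0% of genes above 0). Irf1 was at 24.7, 30.7 and 32.0 FPKM in control cells and 7.56, 5.87 and 7.14 in NFIA cells (-1.94 ± 0.11, adjusted p = 5.8e-10). Igtp (-2.04 ± 0.08), Irgm1 (-1.98 ± 0.11), Ifit2 (-1.96 ± 0.12) and Xaf1 (-1.87 ± 0.21) were as far apart. Trim25 was 6.57-fold higher in NFIA cells (2.48 ± 0.08, adjusted p = 5e-13) and Ifi35, which binds Nmi, was at 19.2 to 26.5 against 10.9 to 15.6 (0.75 ± 0.20, adjusted p = 0.0044). Parp9, Stat2 and Ifih1 were called lower with forskolin (-1.07 ± 0.09, -0.57 ± 0.08 and -0.30 ± 0.09), the last not under quantile normalization, and were not called at day 7 without it (-0.15 ± 0.09, 0.11 ± 0.08 and -0.06 ± 0.09). The interaction of NFIA and forskolin was called for Parp9 and Stat2 and not for Ifih1. With forskolin Ifih1 was under 1 FPKM in both groups, at 0.47 to 0.53 in control cells and 0.16 to 0.30 in NFIA cells.

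Around the members, the interferon genes themselves were at or near 0: of 19 ligand genes in the files the highest value was 0.32 FPKM in C2C12 cells, that of Ifnz, and Ifnb1 and Ifng reached at most 0.10 and 0.17. None was tested. The receptor chains were expressed. Ifnar2 was at 18.8 to 22.5 in control cells of day 0 and 31.6 to 37.6 in NFIA cells (0.72 ± 0.17, adjusted p = 0.0066), and Ifngr1 at 14.7 to 17.2 against 23.8 to 25.9 (0.63 ± 0.09, adjusted p = 0.00012). Of 8 receptor and kinase genes tested, 2 were higher and 1, Jak2, lower at day 0, and 1 was higher and 4 lower at day 7, where 21.2% and 55.5% of all genes tested were called in either direction.

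A separate list of further interferon-stimulated genes that are not among the 41 had 29 of 48 tested in C2C12 cells. At day 0, 11 were called higher in NFIA cells and 1 lower (median 0.31), where 12.1% and 9.07% of all genes tested were. The chemokine Ccl5 was at 0.62, 0.57 and 1.13 FPKM in control cells and 19.9, 28.5 and 25.8 in NFIA cells (3.86 ± 0.25, adjusted p = 2e-08), and Cxcl10, which attracts T cells, at 0.77 to 1.89 against 5.50 to 6.93 (1.65 ± 0.15, adjusted p = 1.2e-06). At day 7 the list was split, with 6 higher and 11 lower (median -0.07), and with forskolin 5 higher and 16 lower (median -0.37); of all genes tested 55.5% and 61.6% were called in these comparisons, so the list's calls in either direction at day 7 were near the background. Ifi27l2a was the largest exception to the falling members, at 2.88, 3.08 and 3.35 in control cells of day 7 and 543, 882 and 764 in NFIA cells (7.45 ± 0.35, adjusted p = 7e-11), while Apol9b fell from a mean of 12.1 to 0.447 (-3.17 ± 0.16, adjusted p = 2.1e-10). Of 12 genes of MHC class I presentation, 3 were higher and 1 lower at day 0, and 3 higher and 4 lower at day 7, again near the background of 55.5%. Tap2, the partner of Tap1, rose at day 0 (1.44 ± 0.30, adjusted p = 0.0025), H2-T23 was lower at both days, and B2m was higher at day 7 (0.74 ± 0.22, adjusted p = 0.011). Of 12 adaptors and kinases that induce interferon, 2 were higher and 1 lower at day 0, close to the 21.2% of all genes. Tlr3 and Ticam1 were the higher ones (0.91 ± 0.08 and 0.61 ± 0.09). At day 7, 3 of the 12 were higher, 3 lower and 6 not called, near the background of 55.5%. Mavs and Myd88 were among the higher ones (1.33 ± 0.10 and 1.24 ± 0.17) and Tmem173 (STING) among the lower (-1.19 ± 0.09). Among 11 tested NF-kB targets, 2 were higher, Il6 and Cxcl1, and 4 lower at day 0, of which Ccl2 and Ccl7 changed most (-2.12 ± 0.22 and -1.76 ± 0.25). Of 9 negative regulators, 0 were called higher and 1 lower at day 0, and 8 were not called (median 0.01). Over all genes tested 12.1% were higher and 9.07% lower, so counts this small are near the background.

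In brown fat no member was called between the libraries labelled NFIA-KO and wild type. Of the 41 members 38 passed the filter, all but Oas3, Mx1 and Mx2, and limma called 0, with 4 at an unadjusted p under 0.05; 3.59% of the 13618 genes tested were called higher and 3.55% lower (7.14% in either direction). The median difference of the members was -0.14, against -0.02 for all genes tested. Over all 41 members the libraries labelled NFIA-KO lay wholly above the wild-type libraries for 1 and wholly below for 3, where 12.9% and 12.7% of genes above 0 did. Because Nfia was higher and not lower in the libraries labelled NFIA-KO, no direction can be tied to a loss of NFIA.

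The spread lay within the wild-type group. Of the 41 members, 32 were highest of the wild-type libraries in replicate 2 (78.0%) and 37 were lowest in replicate 3 (90.2%), where 31.4% and 37.4% of the genes at or above the minimum were. The summed member FPKM was 373, 468 and 252 in the wild-type libraries and 296, 304 and 293 in the libraries labelled NFIA-KO, so the latter lay between the extremes of the former. Rsad2 was at 5.43, 14.4 and 2.51 FPKM in wild type and at 7.69, 8.94 and 5.26 in the others. Ifit3 was at 3.88, 9.68 and 1.10 against 3.10, 3.62 and 3.02, and Oasl2 at 7.03, 9.99 and 1.66 against 4.64, 6.0 and 3.74. For all 3 genes the wild-type range enclosed the other. Without wild-type replicate 2 the members' median became 0.09, without replicate 3 it became -0.43.

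**Figure D5:**
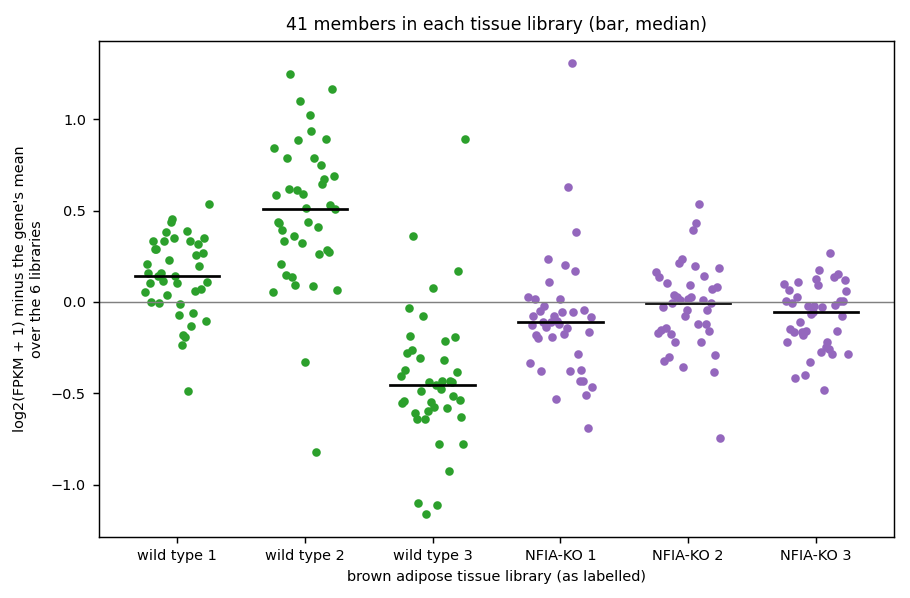
Each of the 41 members in each tissue library as log2(FPKM + 1) minus its mean over the 6 libraries; points are genes and black bars are medians. Wild-type replicate 2 sits above 0 (median 0.51) and wild-type replicate 3 below (median -0.45), and the 3 libraries labelled NFIA-KO lie between them.

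The members closest to a call were Tap1, at 12.7, 8.91 and 16.5 FPKM in wild type and 5.84, 4.64 and 6.77 in the libraries labelled NFIA-KO (-1.0 ± 0.23, adjusted p = 0.051), and Ifi35, at 13.4, 16.3 and 12.4 against 7.38, 8.17 and 10.3 (-0.65 ± 0.17, adjusted p = 0.061). Both were apart between the groups. Tap1 was called under 4 of the alternatives, with adjusted p between 0.023 and 0.05. Ifitm1 was at 3.06, 2.23 and 3.57 against 13.1, 7.27 and 3.89 (1.08 ± 0.37, adjusted p = 0.11) and was called only without replicate 3 of the libraries labelled NFIA-KO (1.46, adjusted p = 0.046). Of 34 further interferon-stimulated genes tested in the tissue, 1 was called, Ifi27l1, at 1047, 984 and 647 in wild type and 184, 213 and 236 in the others (-2.05 ± 0.20, adjusted p = 0.01). Some cell markers differed as well: the 7 skeletal muscle markers summed to 56.0 to 136 FPKM in wild type and 301 to 1926 in the libraries labelled NFIA-KO. Of the 6 brown adipocyte markers, 2 were called lower, 0 higher and 4 not called (median -0.98). The sums of the 11 macrophage and myeloid markers overlapped, at 86.6 to 116 against 92.2 to 193, and 0 of the 10 tested were called. Fabp4 was listed at 0 in wild-type replicate 3 and at 13389 or more in the other 5 tissue libraries, so a listed 0 can be a failed estimate. The part of other cells in the member values was not tested.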

How the data were processed

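The submitters' processing notes name TopHat, Cufflinks and mm9 for the authors' tables; the sources used here give no versions or annotation. The kit was stranded and selected poly(A) RNA, per the labels' protocols. Values were deposited as FPKM, normalized for length and depth by the authors, in 1 table of 37305 rows per library. Rows of 1 symbol at overlapping loci were summed (264 rows merged). log2(FPKM + 1) was fitted with limma 3.58.1 (R 4.3.3; moderated with a mean trend), the 18 C2C12 libraries together over 14351 genes and the 6 tissue libraries over 13618, without covariates, and tested on simulated data. The 41 members and the further lists were chosen with earlier results of these data known. All members may be named; of each further list, up to 5 per comparison with the largest called change, otherwise the highest level, beside genes chosen after their values were seen (Ifnz, Ifnb1, Ifng, S100a8, Camp, Cd68, Fabp4, Gbp5, Gbp7). Alternatives were another pseudocount, no filter, other scalings, zeros as missing, no trend, date or replicate terms, and left-out libraries. FPKM gives no counts, so depth and counting intervals are unknown.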

Additional observations from a re-analysis of the deposited data

Results flagged for a closer look

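The effect of NFIA differed between days, by a test of the difference itself, for 22 members. For 3 of them, Ifih1, Dhx58 and Ifi44, a negative value was built into their selection. They passed the filter only through the NFIA libraries of day 0. Negative values of Irgm2, Oasl1 and Gbp3 were favoured by the selection, as given above. The interaction of NFIA and day (day 7 minus day 0, log2 scale) was -3.98 for Isg15, -3.58 for Ifit1, -3.51 for Ifit3, -3.24 for Oasl2, -3.15 for Ifit2, -2.68 for Igtp, -2.58 for Xaf1 and -2.56 for Oasl1. It was -2.00 for Bst2, -1.84 for Isg20, -1.66 for Rtp4, -1.41 for Ifi44, -1.37 for Irgm2, -1.27 for Ifih1, -1.18 for Dhx58, -1.05 for Gbp3 and -1.02 for Ddx58. Smaller negative values were those of Irf1 (-0.62), Irgm1 (-0.46) and Stat2 (-0.29), of which Stat2 lost its call in 14 and Irgm1 in 7 of 22 alternatives; left-out libraries that ended the call gave -0.31 to -0.24 for Stat2 (all but control replicates 1 and 2 and NFIA replicate 3 of day 0 and control replicate 3 of day 7) and -0.45 to -0.41 for Irgm1 (replicate 3 of either group at day 0, control replicate 3 and NFIA replicate 1 of day 7). Ifitm1 (0.97) and Trim25 (0.64) were positive, and Ifitm1 lost its call in 3 of 22 alternatives, among them a pseudocount of 0.1.

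The response to forskolin differed between NFIA and control cells for 8 members: Trim25 (1.84), Tap1 (-1.30), Irf1 (-1.29), Parp9 (-0.92), Irgm1 (-0.86), Ddx58 (-0.78), Stat2 (-0.69) and Irgm2 (-0.41).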

How the results depend on the processing

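Of 141 member results called in the main analysis, 122 were called in every alternative fitted and 19 lost the call or turned in at least 1. The result that turned was Ifit3 from day 0 to day 7 in control cells (-0.01 under quantile normalization). Alternatives in which a member failed the filter were not counted against it. Ifih1, Dhx58, Gbp3 and Ifi44 were thus judged in 12 of 16 alternatives at day 0 and in 18 of 22 for NFIA by day. The count for forskolin in control cells, 1 member, became 0 under a pseudocount of 0.1, without the filter, under quantile or median-of-ratios scaling, and with only the libraries compared, and 3 with the replicate block or the header date as a term; leaving out 1 library gave 0 to 1. The tissue count of 0 became 1 (Tap1) under quantile normalization, with unlikely zeros as missing and with the replicate block, and ranged from 0 to 1 with 1 library left out; with wild-type replicates 2 and 3 both left out, chosen after seeing the data, it was 0, the lone wild-type library being assumed to vary like the others. The other 8 counts were within 1.5 times of the main ones. Left-out libraries gave 14 to 20 members for NFIA at day 0, 18 to 20 at day 7, 20 to 21 with forskolin, 9 to 13 and 21 to 25 for the course in control and NFIA cells, 10 to 12 for forskolin in NFIA cells, 17 to 24 for NFIA by day and 8 for NFIA by forskolin. Replicate numbers share only a number: the C2C12 titles share 2 of them, with correlations of 0.08 to 0.28 between same-numbered libraries. The unnumbered libraries, which share a header date, correlated at 0.29 to 0.43, and the tissue gave -0.01, 0.11 and 0.14. The replicate block gave 24, 21 and 23 members for NFIA at day 0, day 7 and day 7 with forskolin. Depth is not known from FPKM, so members near 0 cannot be told from absent ones.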

Other observations

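Of the 5 guanylate-binding protein genes in the further list, the 3 tested in C2C12 cells, Gbp4, Gbp6 and Gbp9, rose in control cells from day 0 to day 7. Gbp4 went from 0.01 or less to 1.25 to 1.57 FPKM (1.26 ± 0.08, adjusted p = 6.2e-09). Gbp6 was at 0.01 or less at day 0 and at 4.38, 4.34 and 5.02 FPKM at day 7 (2.47 ± 0.08, adjusted p = 2.9e-12), and Gbp9 at 0.05 to 0.08 and then 3.90 to 4.04 (2.22 ± 0.10, adjusted p = 1e-10). Gbp5 and Gbp7 were not tested: Gbp5 was at 0 and then 0.04 to 0.06, and Gbp7 was at 0.20 to 0.33 and then 0.20 to 0.38. Gbp4, Gbp6 and Gbp9 passed the filter only through libraries of day 7, so a difference was built into their selection. In NFIA cells of day 7 Gbp6 and Gbp9 were at 0.98 to 1.43 and at 0.53 to 0.87, below every control library (-1.36 ± 0.08, adjusted p = 1.4e-09, and -1.56 ± 0.10, adjusted p = 2.8e-09). Gbp9 stayed under the minimum of 1 FPKM in these NFIA libraries. Its lower value there was therefore favoured by the selection and is given as a description.

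Of 11 NF-kB targets tested, forskolin raised 3 and lowered 0 in control cells, with 8 not called (median 0.06), where 1.92% of all genes were called higher. In NFIA cells 6 were higher, 0 lower and 5 not called (median 0.43), where 15.7% of all genes were higher. Cxcl1 went from 1.38 to 1.70 up to 5.90 to 8.05 FPKM in control cells (1.67 ± 0.17, adjusted p = 3.3e-05) and from 1.99 to 3.23 up to 16.7 to 22.5 in NFIA cells (2.46 ± 0.17, adjusted p = 3.6e-08). The response of Cxcl1 differed between the cells (0.78 ± 0.24, adjusted p = 0.03). Il6 rose in both (1.27 ± 0.11 and 1.77 ± 0.11).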
